A study of Mus musculus with 39 samples.

Results

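The class II and class IV histone deacetylases (HDACs) were followed through 13 conditions of mouse oocytes and pre-implantation embryos. The genes were Hdac4, Hdac5, Hdac7 and Hdac9 (class IIa), Hdac6 and Hdac10 (class IIb) and Hdac11 (class IV), and every probe that carried one of these gene names was taken, which gave 9 of the 55681 probes on the array. Hdac6 and Hdac10 each had 2 probes and the other 5 genes had 1.

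The study asked how early embryos respond transcriptionally to selective HDAC inhibitors (HDACi) given as zygotes. Zygotes from in vitro fertilization were exposed to 10 µM T247, an inhibitor selective for HDAC3, or to 10 µM MGCD0103, an inhibitor of the class I enzymes HDAC1, HDAC2 and HDAC3, for 6 h from 4 h post-insemination (hpi). Treated and untreated embryos were collected at 12 hpi (1-cell stage), 24 hpi (2-cell stage) and 48 hpi (4-cell stage, control and T247 only), and untreated germinal vesicle (GV) and metaphase II (MII) oocytes, 8-cell embryos, morulae and blastocysts completed the series. Each condition had 3 arrays, 39 in all, and each array held RNA from 100 oocytes or embryos. All groups had the strain label B6D2F1 x ICR. For embryos, the egg donors were 8 to 9 weeks old and the sperm donors 15 to 20 weeks old, MII oocytes came from females of that same age, and no donor age was taken for GV oocytes. The controls received no HDACi, and the study's methods call the 3 arrays of a condition biological replicates. Pooled embryos with fewer transcripts per cell and pools with fewer transcribing cells cannot be told apart.

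Class IIa HDACs carry an amino-terminal domain that binds MEF2 transcription factors, and phosphorylation by CaM kinases, protein kinase D and related kinases creates binding sites for 14-3-3 proteins, which hold the enzymes in the cytoplasm. Their own deacetylase activity is weak, and in the nucleus they act largely by recruiting NCoR or SMRT complexes that contain HDAC3, the enzyme at which T247 is aimed. HDAC6 is a cytoplasmic deacetylase of tubulin and HSP90 that also binds ubiquitin, HDAC10 deacetylates polyamines, and HDAC11 removes fatty-acyl groups from lysine.

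Stretches of probes from the mm9 grid are shown, each 5′ to 3′ as designed, because repeats and overlaps of probes are set beside the levels below. The Hdac7 probe, at chr15:97623208-97623267 (mm9, minus strand), holds alternating TG repeats, which are in capitals. The same marking is used for the probes of Vax2 (chr6:83688239-83688298) and Magef1 (chr16:21332081-21332140), which are among the 3 genes whose pattern over the conditions was most like that of Hdac7. In the pair of Hdac6 probes (chrX:7507249-7507308 and chrX:7507261-7507320, minus strand), which overlap by 48 of 60 bases, the shared bases within the stretches shown are in capitals. The pair of Hdac10 probes (chr15:88953840-88953899 and chr15:88954002-88954061, minus strand) is printed without capitals because it shares no bases and so gives separate readings of one gene.
Hdac7 probe, bases 13 to 42: attTGTGTGtaTGTGTGTGtatgagtgcgt
Vax2 probe, bases 1 to 30: gTGTGTGTGtctgagtatgtaTGTGtcact
Magef1 probe, bases 1 to 30: gTGTGTGTGtaagcttatttgatgccgagc
Hdac6 probe A_55_P1992655, bases 1 to 30: ACAACGGGGCAGTGGCAGCAGGTCAGCATA
Hdac6 probe A_55_P2009792, bases 1 to 30: acattgaaggagACAACGGGGCAGTGGCAG
Hdac10 probe A_51_P502764, bases 1 to 30: ataataacagtgattgccagtcgcttgaaa
Hdac10 probe A_55_P1971804, bases 1 to 30: gagatccaggctctgatgtttctaaaagct

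The remaining probes lay at chr1:93829554-93829613 (Hdac4, minus strand), chr11:102057076-102057135 (Hdac5, minus strand), chr12:35056405-35056464 (Hdac9, minus strand) and chr6:91124085-91124144 (Hdac11, plus strand) in mm9. The exon or UTR in which each probe lies was not annotated here.

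Levels are normalized log2 intensities of 1-colour arrays, given as mean ± SD of 3 arrays, and a log2 fold change (LFC) is a difference of such means. A probe was called when the LFC was at least 1 in size and the limma adjusted p (Benjamini-Hochberg, over all probes tested) was below 0.05, and only called probes are said to have risen or fallen. A level counts as measured where the signal was well above background. On each array, 62.4 to 77.3% of the probes were positive and significant and 44.4 to 58.3% well above background. All 6 oocyte markers were well above background on all arrays from GV to the 2-cell stage. All 8 morula and blastocyst markers were so on all morula and blastocyst arrays. However, 7 of these 8 were also so on all GV, 2-cell control and 4-cell control arrays, and 5 oocyte markers on all morula arrays. These flags alone therefore do not tell the stages apart. Of 6 markers of the 2-cell embryo, all 6 were so on all 2-cell arrays and 4 on all GV arrays. Of 6 sperm markers, 3 were so on all GV arrays and 4 on all blastocyst arrays. Of 8 cumulus and granulosa cell markers, 6 were well above background on all GV arrays and 4 on all MII and 1-cell control arrays. The 1 that was so on all 4-cell control arrays was Foxl2, at 13.69 there and 14.42 in blastocysts. The part of these markers in the stage differences was not tested.

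Before the results, 1 array and the slides have to be set apart. Replicate 1 of the 2-cell control correlated with the other 2-cell control arrays at r = 0.942 and 0.949 over 34087 probes, against 0.991 between those arrays and 0.981 to 0.993 within every other condition, and 30.4% of the probes lay at least 1 log2 unit from the mean of the other replicates. It is kept, and values without it are given where they change a result of the 2-cell stage. The untreated arrays with replicate numbers 1, 2 and 3 lay on slides 1, 2 and 3, T247 arrays on slides 4 and 5 and MGCD0103 arrays on slide 6, so that HDACi and slide cannot be told apart. T247 and MGCD0103 were compared with the same control arrays.

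**Figure D1:**
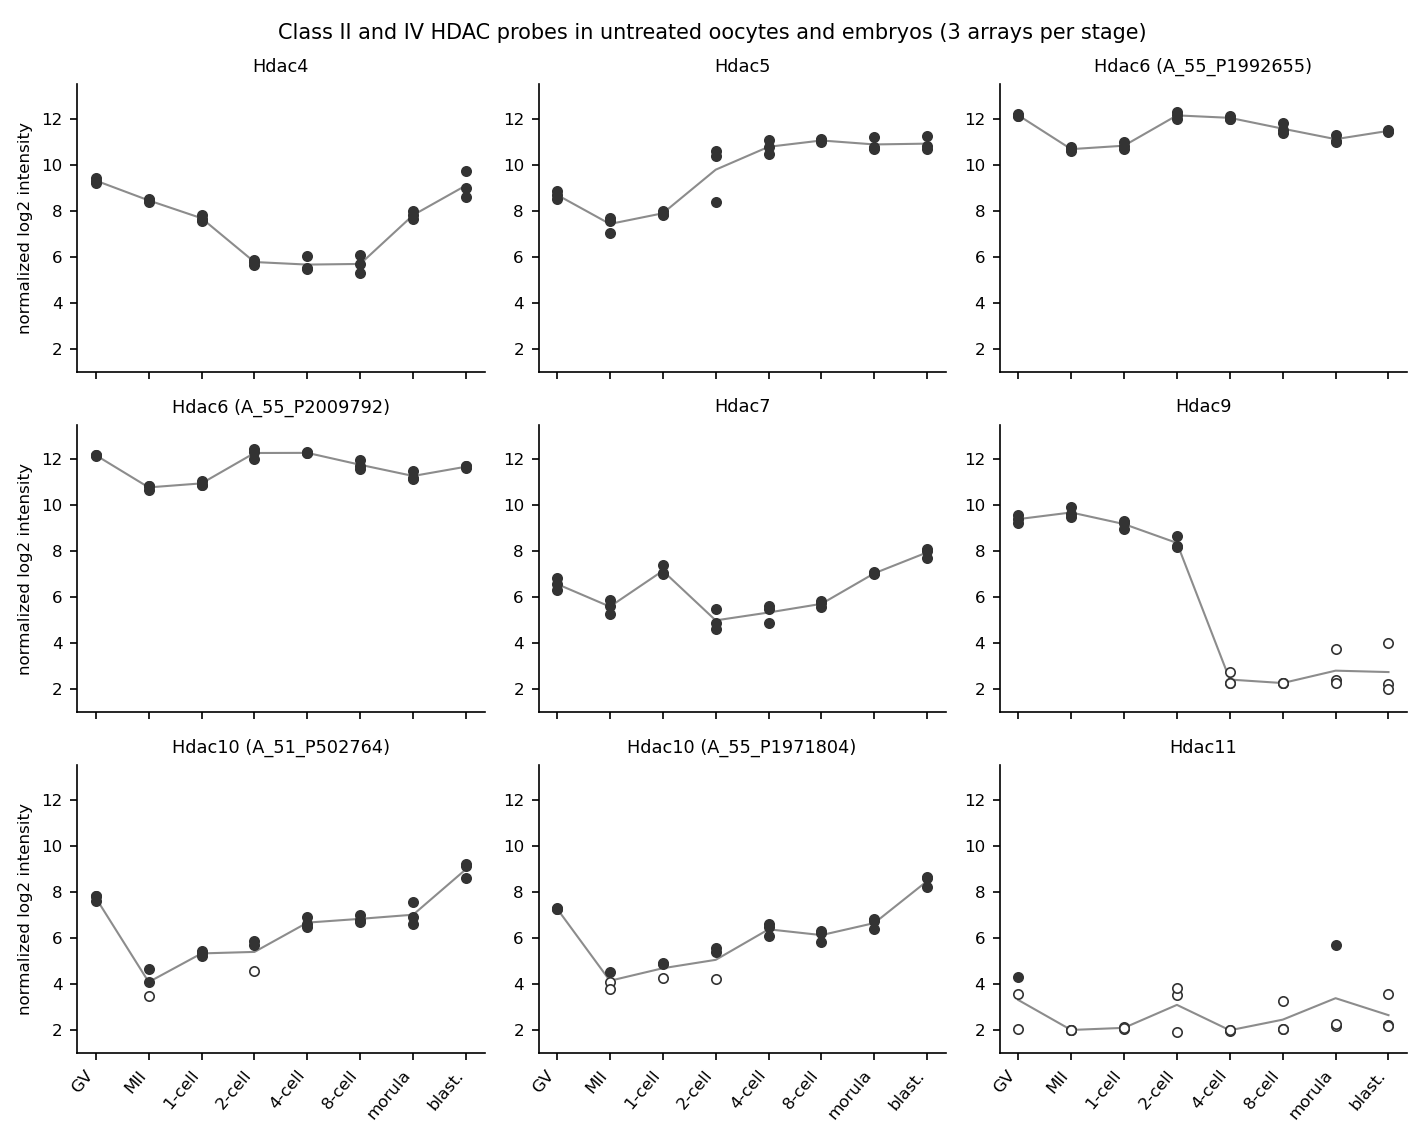
Normalized log2 intensity of the 9 HDAC probes on each untreated array from GV oocyte to blastocyst, with a line through the means of 3 arrays per stage; filled points were well above background and open points were not. Hdac4 is lowest from the 2-cell to the 8-cell stage and higher in the morula and blastocyst, Hdac5 lies high from the 4-cell stage on, Hdac9 drops to background at the 4-cell stage, and Hdac11 stays near background.

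Hdac7, a class IIa enzyme best known from developing T cells and from endothelium, had the largest LFC of the 8 probes tested in each HDACi comparison. Its 3 control arrays at the 1-cell stage had levels of 7.04, 7.04 and 7.39, the T247 arrays 9.81, 9.77 and 9.86, and the MGCD0103 arrays 9.5, 9.39 and 9.24. At the 2-cell stage the control levels were 5.49, 4.63 and 4.88, those with T247 8.26, 8.17 and 7.90, and those with MGCD0103 8.05, 7.95 and 7.91. At the 4-cell stage the control levels were 4.89, 5.50 and 5.64 and those with T247 7.01, 6.92 and 7.03. Every treated array lay above every control array of its stage, and the probe was well above background on all 39 arrays.

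Accordingly, Hdac7 rose with T247 by 2.66 at the 1-cell stage (SE 0.197, adjusted p = 4.51e-08, limma), by 3.11 at the 2-cell stage (adjusted p = 1.72e-09) and by 1.64 at the 4-cell stage (adjusted p = 3.39e-06). With MGCD0103 it rose by 2.22 at the 1-cell stage (adjusted p = 6.00e-07, limma) and by 2.97 at the 2-cell stage (adjusted p = 1.44e-09). These LFCs ranked 168, 130 and 1588 from the top of 32750 probes for T247 and 177 and 171 for MGCD0103. The response to T247 was smaller at the 4-cell than at the 2-cell stage, by -1.47 (SE 0.278, adjusted p = 0.000511, limma, test of the difference of LFCs).

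Between the inhibitors at the same dose and stage, the Hdac7 level with MGCD0103 differed from that with T247 by -0.44 at the 1-cell stage (95% confidence interval -0.85 to -0.03, adjusted p = 0.598, limma) and by -0.14 at the 2-cell stage (-0.55 to 0.27, adjusted p = 0.647). The 1-cell arrays of the inhibitors did not overlap and the 2-cell arrays did, and neither difference passed the test. With normexp background correction the 2-cell LFCs were 1.86 with T247 and 1.75 with MGCD0103, still called, and the 4-cell LFC was 0.91 and not called. The 2-cell LFCs were 3.35 and 3.22 without replicate 1 of the 2-cell control.

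**Figure D2:**
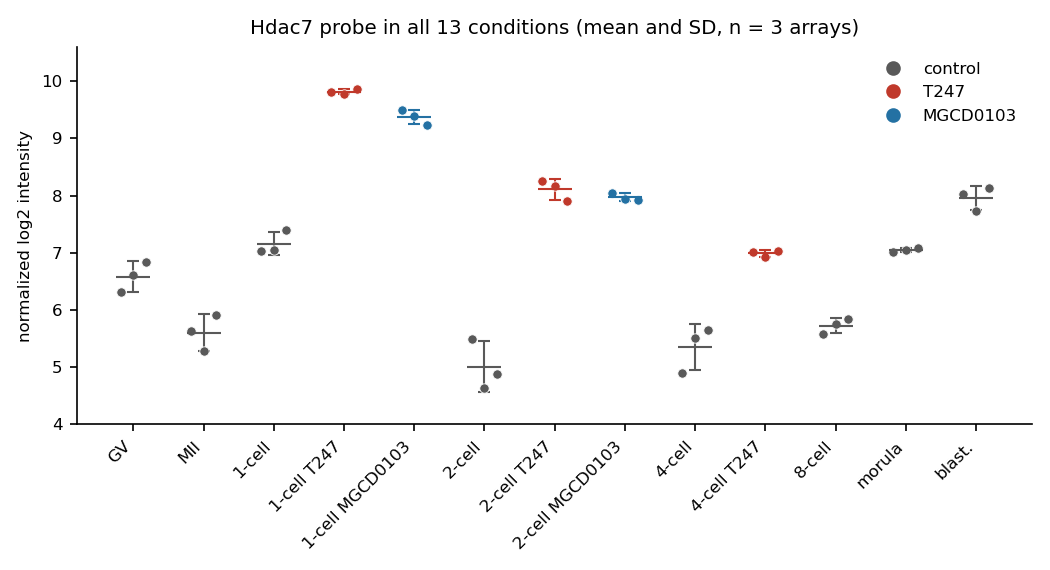
Normalized log2 intensity of the Hdac7 probe on each array of the 13 conditions, with the mean and SD of 3 arrays (control grey, T247 red, MGCD0103 blue). All treated arrays sit above the control arrays of their stage, from 6.92 to 7.03 with T247 at the 4-cell stage up to 9.77 to 9.86 with T247 at the 1-cell stage.

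The Hdac7 reading comes from 1 probe, and other probes with TG repeats moved the same way. The motif TGTG, counted at overlapping positions on the probe strand, occurred 6 times in the Hdac7 probe and at most 1 time in each of the other 8 HDAC probes, and 30.2% of all probes held it at least 1 time. Another 149 probes, 0.268% of the array, held it 6 times or more, and 142 of them were tested. These probes recognise transcripts of many genes and are not replicates.

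At the 1-cell stage, 82 of the 142 were called higher with T247 (57.7%, against 7.59% of all probes) and 72 with MGCD0103 (50.7%, against 4.59%). At the 2-cell stage the counts were 48 with T247 (33.8%, against 8.72%) and 117 with MGCD0103 (82.4%, against 11.7%), and at the 4-cell stage 12 with T247 (8.45%, against 12.8%). Their median LFCs were 1.09, 0.712 and 0.288 with T247 at the 1-, 2- and 4-cell stages and 1.01 and 1.28 with MGCD0103 at the 1- and 2-cell stages, while the medians of all probes lay between -0.229 and 0.127.

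The Hdac7 LFC lay near the top of these probes: 4, 1 and 3 of the 142 reached it with T247 and 3 and 1 with MGCD0103. Without replicate 1 of the 2-cell control, 75 of them were higher with T247 at the 2-cell stage. Under 75th percentile scaling and quantile normalization, 67 and 74 were higher with T247 at the 1-cell stage (6.29% and 5.06% of all probes). With MGCD0103 at that stage 54 and 55 were higher (3.19% and 2.69% of all). With T247 at the 2-cell stage 61 and 93 were higher (11.9% and 11.3% of all). For the complementary motif CACA, 79 probes with 6 or more matches were tested. With T247 in 1-cell embryos, 3 were higher (3.8%, against 7.59% of all) and 10 lower (12.7%, against 0.882%). In 2-cell embryos 3 were higher (3.8%, against 8.72%) and 4 lower (5.06%, against 14.8%). In 4-cell embryos 7 were higher (8.86%, against 12.8%) and 0 lower (against 4.76% of all). With MGCD0103, 2 were higher (2.53%, against 4.59%) and 5 lower (6.33%, against 0.687%) in 1-cell embryos. In 2-cell embryos 2 were higher (2.53%, against 11.7%) and 10 lower (12.7%, against 14.1%). TGTG and CACA have no base in common, so that matches cannot overlap. The part of the repeats in the Hdac7 result was not tested.

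**Figure D3:**
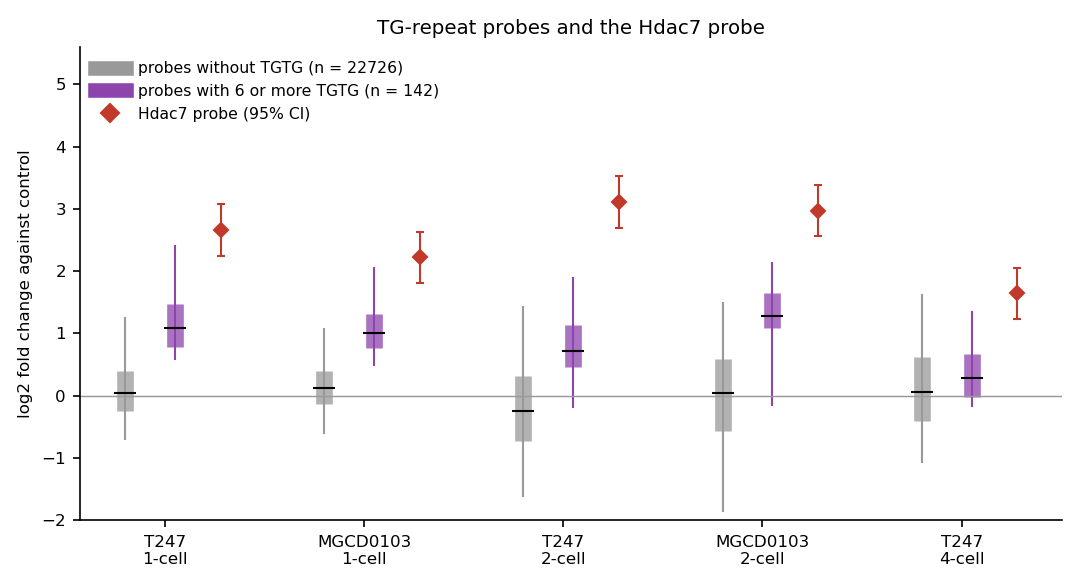
LFC of the Hdac7 probe (red, with its 95% confidence interval) beside all probes without TGTG (grey, n = 22726) and the other probes with 6 or more TGTG (purple, n = 142) in the 5 HDACi comparisons; boxes span the middle 50% of probes, lines the 5th to 95th percentile, and the black bar is the median. The purple medians are 1.09 and 0.712 with T247 at the 1- and 2-cell stages, and the Hdac7 probe lies above the purple 95th percentile in all 5 comparisons.

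The 3 genes most like Hdac7 over the 13 condition means, among 15896 genes, included Vax2 (r = 0.961), a homeobox gene of the developing eye, and Magef1 (r = 0.951), a MAGE family gene. Their probes held TGTG 4 and 3 times. Both were called higher in all 5 HDACi comparisons. This is no separate result, since the 13 conditions by which they were chosen include the treated ones. The LFC with T247 at the 1-cell stage was 3.59 for Vax2 and 4.99 for Magef1, and with MGCD0103 at the 2-cell stage 4.14 and 5.21. A correlation over condition means is a description here, since all conditions share arrays and normalization.

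Without HDACi, Hdac7 was low in MII oocytes and from the 2-cell to the 8-cell stage. Its levels were 6.58 ± 0.26 in GV oocytes, 5.6 ± 0.32 in MII oocytes, 7.16 ± 0.20 at the 1-cell, 5.0 ± 0.45 at the 2-cell, 5.34 ± 0.40 at the 4-cell and 5.72 at the 8-cell stage, and then 7.05 (morula) and 7.96 (blastocyst). It rose by 1.56 from MII to 1-cell (adjusted p = 2.52e-05, limma), fell by 2.16 from 1-cell to 2-cell (adjusted p = 1.32e-07) and rose by 1.33 from 8-cell to morula (adjusted p = 8.69e-05). The last of these was 0.73 under 75th percentile scaling and 0.85 under quantile normalization, and the first was 0.86 with normexp, and was then not called. Of the other probes with 6 or more TGTG, 120 of 141 were higher from MII to 1-cell (85.1%, against 14.5% of all) and 129 lower from 1-cell to 2-cell (91.5%, against 27.7%). Of 79 probes with 6 or more CACA, 42 were lower from MII to 1-cell (53.2%, against 3.79% of all) and 1 higher. From 1-cell to 2-cell 48 of them were higher (60.8%, against 17.1%) and 4 lower.

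Counted together, 8 of the 9 HDAC probes passed the filter for the HDACi comparisons and Hdac11 did not. With T247, 2 of the 8 were called in 1-cell embryos, where 8.47% of all probes were called (Hdac7 and Hdac5, both higher, against 7.59% of all higher and 0.882% lower). In 2-cell embryos 1 was called (Hdac7, 23.5% of all) and in 4-cell embryos 2 (Hdac7 and Hdac9, both higher, 17.5% of all called). With MGCD0103, Hdac7 alone was called, in 1-cell embryos (5.27% of all) and in 2-cell embryos (25.8% of all). Apart from Hdac7, the LFCs of the probes tested lay between -0.94 and 1.57.

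**Figure D4:**
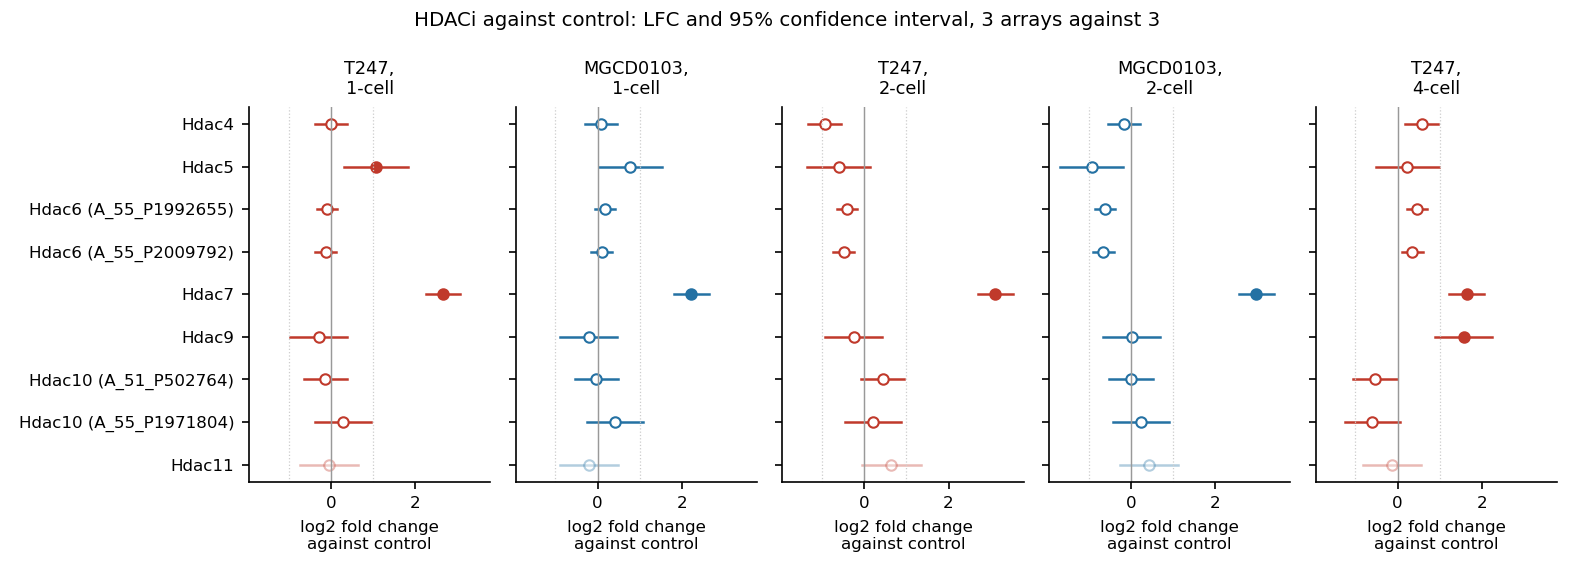
LFC against control with its 95% confidence interval for the 9 HDAC probes in the 5 HDACi comparisons, 3 arrays against 3; filled points were called, the dotted lines mark an LFC of 1 in either direction, and the pale Hdac11 points come from a fit without the filter. Hdac7 is filled in all 5 panels, Hdac5 with T247 at the 1-cell stage and Hdac9 with T247 at the 4-cell stage.

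Hdac5, a class IIa enzyme that represses MEF2 targets in muscle and heart, rose with T247 at the 1-cell stage, but only just. The control levels were 7.83, 7.86 and 8.02, those with T247 8.98, 8.93 and 9.02, and those with MGCD0103 8.57, 8.66 and 8.81. No treated array overlapped a control array. The LFC was 1.07 with T247 (SE 0.359, adjusted p = 0.0403, limma) and 0.78 with MGCD0103 (adjusted p = 0.179). The T247 call was lost when any 1 of the 6 arrays was left out (LFC 1.04 to 1.13) and in 5 of 13 other settings. The difference between the inhibitors was -0.30 (95% confidence interval -1.05 to 0.46).

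At the 2-cell stage the Hdac5 comparison turned on 1 control array. The control levels were 8.37, 10.61 and 10.41, those with T247 9.22, 9.16 and 9.18, and those with MGCD0103 8.82, 8.86 and 8.92. Replicate 1 of the control lay below all treated arrays and the other control arrays lay above all of them. The LFCs were -0.61 with T247 (adjusted p = 0.178, limma) and -0.93 with MGCD0103 (adjusted p = 0.0400), neither called. Without that array Hdac5 was called lower with both, at -1.32 (adjusted p = 4.55e-07, limma) and -1.64 (adjusted p = 2.27e-08). At the 4-cell stage the LFC with T247 was 0.24 (adjusted p = 0.643).

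Its response therefore differed between stages, by -1.68 from the 1-cell to the 2-cell stage with T247 (SE 0.507, adjusted p = 0.0186, limma) and by -1.71 with MGCD0103 (adjusted p = 0.0183). Across all probes, 16.7% and 17.9% were called in these tests, 13.7% and 14.1% as lower. Without replicate 1 of the 2-cell control the differences were -2.39 and -2.42. Without replicate 2 they were -1.27 and -1.30 and without replicate 3 -1.38 and -1.40, and then not called. The T247 difference was also not called under 75th percentile scaling, and neither difference was called in a fit of only the arrays compared.

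Through development Hdac5 moved from a low to a high level at the 2-cell stage. The level was 8.70 ± 0.18 in GV oocytes, 7.44 ± 0.34 in MII oocytes and 7.90 ± 0.10 in 1-cell embryos, against 10.79 ± 0.31 at the 4-cell and 11.07 ± 0.05 at the 8-cell stage. From the 1-cell to the 2-cell stage it rose by 1.89 (SE 0.384, adjusted p = 0.000281, limma), or by 2.61 without replicate 1 of the 2-cell control. The step from the 2-cell to the 4-cell stage was 0.995 (adjusted p = 0.0291) with all arrays and 0.28 without that array. From the 4-cell stage on, the levels of neighbouring stages overlapped. The gene most like Hdac5 over the 13 condition means was Zbed6 (r = 0.986).

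**Figure D5:**
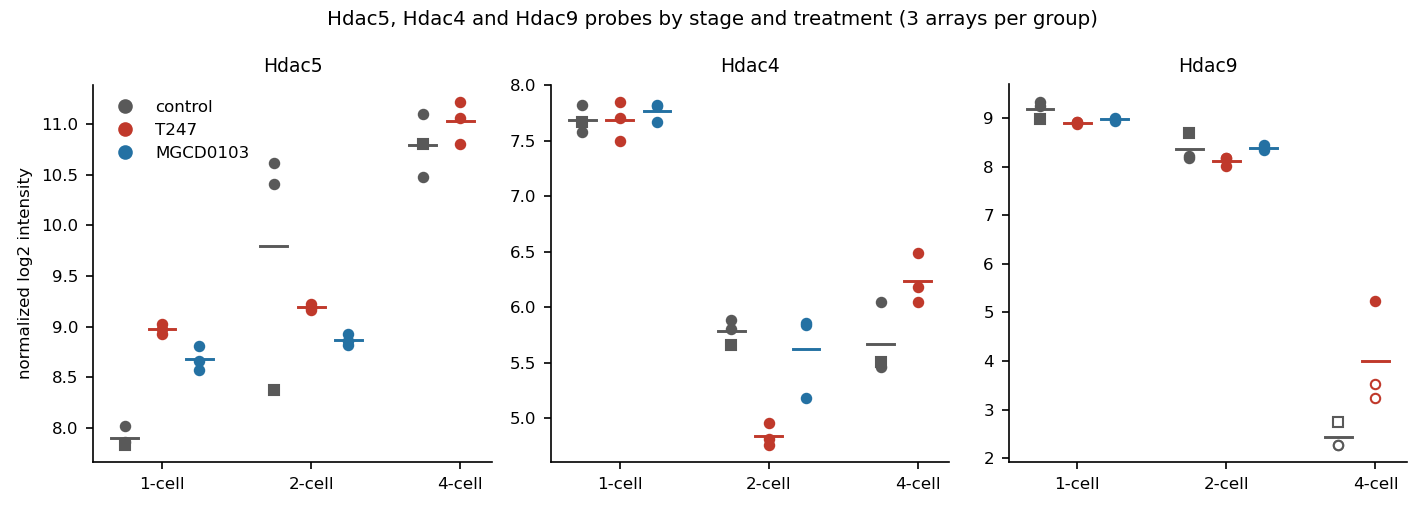
Normalized log2 intensity of the Hdac5, Hdac4 and Hdac9 probes on each control (grey), T247 (red) and MGCD0103 (blue) array of the 1-, 2- and 4-cell stages, with bars at the means of 3 arrays; squares are control arrays with replicate number 1, open symbols were not well above background, and the vertical scales differ. The Hdac5 square at the 2-cell stage lies at 8.37, below all treated arrays, and in the Hdac9 panel 1 of 3 T247 arrays at the 4-cell stage, at 5.23, is filled.

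Hdac4, the class IIa enzyme that restrains chondrocyte hypertrophy, was lower with T247 at the 2-cell stage by slightly less than the limit for a call. The control levels were 5.66, 5.80 and 5.89, those with T247 4.96, 4.76 and 4.81, and those with MGCD0103 5.84, 5.19 and 5.86. All T247 arrays lay below all control and MGCD0103 arrays. The LFC was -0.94 with T247 (SE 0.182, adjusted p = 0.000307, limma) and -0.16 with MGCD0103 (adjusted p = 0.507). Without replicate 1 of the 2-cell control the T247 value was -1.0 and called, and under quantile normalization -1.01 and called. MGCD0103 exceeded T247 by 0.78 (95% confidence interval 0.40 to 1.17, adjusted p = 0.00559, limma).

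At the 1-cell stage the Hdac4 LFCs were -0.00 with T247 and 0.08 with MGCD0103, with 95% confidence intervals from -0.39 to 0.38 and from -0.30 to 0.46. At the 4-cell stage, the control levels were 5.51, 6.05 and 5.46 and those with T247 6.18, 6.49 and 6.05, which just overlapped, with an LFC of 0.57 (adjusted p = 0.0180, limma). The T247 response thus differed between the 2-cell and 4-cell stages by 1.51 (SE 0.258, adjusted p = 0.000198, limma), in a comparison that called 22.7% of all probes, 17.4% as higher and 5.28% as lower. It was 0.64 and not called with normexp.

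In untreated samples the Hdac4 level was 9.32 ± 0.10 in GV oocytes, 8.46 ± 0.08 in MII oocytes, 7.69 ± 0.13 at the 1-cell and 5.78 ± 0.12 at the 2-cell stage. It stayed at 5.67 and 5.70 at the 4-cell and 8-cell stages and reached 7.82 ± 0.18 in morulae and 9.11 ± 0.57 in blastocysts. The fall from 1-cell to 2-cell was called (LFC -1.90, adjusted p = 9.14e-07, limma), as were the rises to the morula (2.12, adjusted p = 4.48e-07) and to the blastocyst (1.29, adjusted p = 0.000228). The rise to the blastocyst was 0.88 under 75th percentile scaling and 0.98 without blastocyst replicate 3, and then not called. A further probe that the array describes as an Hdac4 transcript, but does not name Hdac4, was well above background on all 3 blastocyst arrays (5.52 ± 0.06) and on 1 other array, a morula. The gene most like Hdac4 was Prep (r = 0.969), a prolyl endopeptidase.

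Hdac9, a class IIa enzyme of muscle and neurons with a splice form that lacks the catalytic domain, was measured in oocytes and up to the 2-cell stage and then disappeared into background. Its levels were 9.24, 9.56 and 9.40 in GV oocytes, 9.94, 9.51 and 9.63 in MII oocytes and 8.98, 9.34 and 9.24 in 1-cell embryos. They were 8.69, 8.19 and 8.23 in 2-cell and 2.75, 2.28 and 2.26 in 4-cell embryos. No 4-cell, 8-cell, morula or blastocyst array of the controls was well above background.

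The 4-cell level was at least 17-fold lower than the 2-cell level, with measured means of 2.43 and 8.37 (adjusted p = 2.73e-10, limma without the filter, which the probe did not pass across stages). This bound sets the 2-cell mean against the dimmest signal that was well above background on each 4-cell array. The differences from GV to MII, MII to 1-cell and 1-cell to 2-cell were 0.29, -0.50 and -0.82 in the fit without the filter and were not called. The gene most like Hdac9 was Sh3rf2 (r = 0.998), and a further probe described as an Hdac9 transcript did not exceed background well on any of the 39 arrays.

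With T247, the Hdac9 levels at the 4-cell stage were 3.23, 5.23 and 3.53, all above the control levels, and 1 of the 3 arrays was well above background. The fitted LFC was 1.57 (SE 0.322, adjusted p = 0.000741, limma), which is no estimate of a fold because no control array measured the gene. It was 0.95 and not called without T247 replicate 2, the array at 5.23, and was also not called with normexp (0.33) or in a fit of the 4-cell arrays alone. At the 1-cell and 2-cell stages the LFCs of Hdac9 with both HDACi lay between -0.28 and 0.03 (adjusted p from 0.571 to 0.957, limma, 3 arrays against 3). The T247 LFC was higher at the 4-cell than at the 2-cell stage by 1.81 (SE 0.456, adjusted p = 0.00471), with the same limit at the 4-cell stage.

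Hdac6, the tubulin deacetylase of class IIb, was well above background on all arrays and was called in 2 of the 7 steps between stages, but in no HDACi comparison. Its overlapping probes A_55_P1992655 and A_55_P2009792 ran together over the 13 condition means (r = 0.994). Means in untreated samples were 12.16 and 12.18 in GV oocytes, 10.69 and 10.78 in MII oocytes, 10.84 and 10.96 at the 1-cell and 12.16 and 12.28 at the 2-cell stage for the respective probes. The rise from 1-cell to 2-cell was 1.32 for both (adjusted p = 7.31e-08 and 6.65e-08, limma). From GV to MII the LFCs were -1.47 and -1.40 and called, but 0.04 and 0.11 under quantile normalization and -0.14 and -0.07 under 75th percentile scaling.

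With HDACi, neither Hdac6 probe reached the limit. At the 2-cell stage the LFCs were -0.40 and -0.49 with T247 (adjusted p = 0.00676 and 0.00225, limma) and -0.62 and -0.66 with MGCD0103 (adjusted p = 0.000208 and 0.000178), and no treated array overlapped a control array. Leaving out replicate 1 of the 2-cell control gave -0.49 and -0.62 with T247 and -0.70 and -0.78 with MGCD0103. Under quantile normalization the T247 values lost their direction (0.10 and 0.01). At the 4-cell stage they were 0.46 and 0.34 with T247 (adjusted p = 0.00334 and 0.0273). Of the genes ranked, Tcp11 was most like Hdac6 (r = 0.955).

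Hdac10, the polyamine deacetylase of class IIb, was lowest in MII oocytes and highest in blastocysts. Both of its separate probes showed this order (r = 0.988 over the 13 condition means). For A_51_P502764 the level was 7.73 in GV oocytes, 4.08 in MII oocytes, 5.32 at the 1-cell, 5.39 at the 2-cell, 6.66 at the 4-cell and 6.82 at the 8-cell stage, and then 7.0 (morula) and 8.98 (blastocyst). For A_55_P1971804 the levels were 7.27, 4.13, 4.68, 5.04, 6.37, 6.12, 6.64 and 8.47 in the same order. In MII oocytes 2 of 3 and 1 of 3 arrays were well above background for the respective probes.

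From GV to MII Hdac10 fell by 3.66 and 3.14 on the log2 scale (adjusted p = 4.56e-09 and 1.19e-08, limma), and the fall was called in every scaling tried. The MII means of 4.08 and 4.13 lay near the dimmest signal well above background on those arrays (3.96 to 4.38), which limits the size of the fall. From morula to blastocyst it rose by 1.98 and 1.83 (adjusted p = 5.92e-05 and 5.33e-05). The rises from the 2-cell to the 4-cell stage were 1.27 and 1.33 (adjusted p = 0.00152 and 0.000472), and 0.87 and 0.91, not called, without replicate 1 of the 2-cell control. From MII to 1-cell, A_51_P502764 rose by 1.24 (adjusted p = 0.00468) while A_55_P1971804 had an LFC of 0.55 (adjusted p = 0.174).

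Neither Hdac10 probe was called with an HDACi. The values were -0.13 and 0.29 with T247 and -0.03 and 0.41 with MGCD0103 at the 1-cell stage, and 0.44 and 0.20 with T247 and 0.00 and 0.24 with MGCD0103 at the 2-cell stage. Without replicate 1 of the 2-cell control the 2-cell values were 0.03 and -0.22 with T247 and -0.40 and -0.18 with MGCD0103, and 1 array thus decided their size or sign. In 4-cell embryos both were lower with T247, at -0.53 and -0.59 (adjusted p = 0.0906 and 0.143, limma), without overlap between the arrays. The gene most like Hdac10 was Gm3776 (r = 0.948).

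Hdac11, the only class IV enzyme, was not reliably detected. Its probe was well above background on 3 of 39 arrays, 1 each of GV oocytes, morulae and T247 2-cell embryos, and positive and significant on 16. Condition means ran from 1.85 to 3.73, and the probe passed neither filter, so no fold is given.

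Across untreated stages, 7 HDAC probes passed the filter. Of these, 5 were called from GV to MII, all lower (40.7% of all probes were called, 40% as lower), and 2 from MII to 1-cell, both higher (18.3% of all, 14.5% as higher). From 1-cell to 2-cell 3 were higher and 2 lower (44.8% of all, 17.1% higher and 27.7% lower), and from 2-cell to 4-cell 2 were higher (53% of all, 23.2% higher). From 8-cell to morula 2 were higher (29.9% of all, 24.6% higher) and from morula to blastocyst 3 (21.3% of all, 15.1% higher). From 4-cell to 8-cell none was called by limma (11.3% of all), and 2 had an unadjusted p below 0.05. All 19 calls, which count both probes of Hdac6 and of Hdac10, had the same direction on each of the 3 slides. This is largely fixed by the call itself, which was made on these same arrays. The direction from GV to MII depends on the scaling for all probes together: the median LFC was -0.749 here and 0.531 and 0.270 under 75th percentile scaling and quantile normalization, and relative to that median Hdac10 lay lower in all 3.

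Between MGCD0103 and T247, none of the 8 HDAC probes was called by limma at the 1-cell stage (0.165% of all probes) or the 2-cell stage (4.38%). At an unadjusted p below 0.05 there were 2 and 1, respectively, namely Hdac7 and Hdac6 A_55_P1992655 (0.28) at the 1-cell and Hdac4 at the 2-cell stage.

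The partners of these enzymes were read from lists of 64 genes, of which 60 were tested for HDACi. With T247, 1 was higher and 1 lower in 1-cell embryos, 4 were higher and 8 lower in 2-cell embryos, and 3 were higher and 4 lower in 4-cell embryos. With MGCD0103, 1 was higher in 1-cell embryos, and in 2-cell embryos 5 were higher and 6 lower. The medians of the 60 LFCs with T247 were -0.155, -0.252 and -0.120 by stage, against 0.0522, -0.229 and 0.0596 for all probes, and with MGCD0103 -0.00235 and 0.0961, against 0.127 and 0.0553. Among all probes in 1-cell embryos, 7.59% were higher and 0.882% lower with T247 and 4.59% and 0.687% with MGCD0103. In 2-cell embryos the shares were 8.72% and 14.8% with T247 and 11.7% and 14.1% with MGCD0103. In 4-cell embryos 12.8% of all probes were higher and 4.76% lower with T247. Without replicate 1 of the 2-cell control, 6 were higher and 9 lower with T247 and 10 higher and 7 lower with MGCD0103 at that stage. Under quantile normalization 4 were higher and 3 lower with T247 at that stage (11.3% and 10.9% of all).

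Of the class I enzymes, T247 is aimed at HDAC3 and MGCD0103 at HDAC1, HDAC2 and HDAC3. Hdac1 fell at the 2-cell stage with T247 (LFC -1.27) and MGCD0103 (-1.90), the former at -0.94 and not called under quantile normalization. The LFCs of Hdac2, Hdac3 and Hdac8, none called, lay between -0.79 (Hdac3, T247, 4-cell) and 0.63 (Hdac8, MGCD0103, 2-cell).

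Of the MEF2 factors, which class IIa HDACs repress, Mef2a rose with T247 at the 1-cell (1.48, SE 0.230) and 2-cell stage (1.13) and with MGCD0103 at both (1.31 and 1.75). The Mef2a probe that was tested held TGTG 8 times, and the remaining Mef2a probes did not pass the filter, so that the part of the repeats was not tested here either. No LFC of the other tested factors was called, with values from -0.26 to 0.82 for Mef2b and from -0.50 to 0.22 for Mef2d over the 5 HDACi comparisons, and Mef2c did not pass the filter.

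The kinases and 14-3-3 proteins control where class IIa HDACs reside in the cell. Of these, 14 of 16 kinases and all 7 14-3-3 genes were tested. In 1-cell embryos 1 kinase was called, lower with T247 (0.882% of all probes lower). In 2-cell embryos 1 kinase was higher with T247 (8.72% of all higher) and 1 with MGCD0103 (11.7%), and no 14-3-3 gene was called. With T247 in 4-cell embryos, 2 kinases were higher and 1 lower, and 2 14-3-3 genes were lower (12.8% of all higher and 4.76% lower). Mark2 fell with T247 at the 1-cell stage (-1.02), Sik3 rose with MGCD0103 at the 2-cell stage (1.04) and Camk2d fell with T247 at the 4-cell stage (-1.22). Camk2a was at least 1.32-fold higher with T247 at the 2-cell stage. In 4-cell embryos Camk2a and Camk1g were called with T247 but not well above background in the control, so no fold is given. The 14-3-3 genes Ywhab and Sfn fell with T247 at the 4-cell stage (-1.02 and -1.22), the former at -0.96 and not called under quantile normalization.

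Among the 10 corepressors and adaptors, Tbl1x, a subunit of the NCoR complex, fell at the 2-cell stage with T247 (-1.43) and MGCD0103 (-1.92). Bcl6, a repressor that recruits class IIa HDACs, rose with both at that stage (1.80 and 1.90) and with T247 at the 4-cell stage (1.31). Ctbp1 fell with T247 at the 4-cell stage (-1.02, and -0.89 and not called under quantile normalization).

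Among the 8 HDAC6 partners and substrates, the chaperone gene Hsp90aa1 fell at the 2-cell stage with T247 (-1.44) and MGCD0103 (-1.27), as did Vcp, which extracts ubiquitinated proteins (-1.38 and -2.15, the former -0.93 and not called under quantile normalization). Hsp90ab1 fell with T247 (-1.15, and -0.94 and -0.90, not called, under 75th percentile scaling and quantile normalization). Tppp, a tubulin polymerization factor, rose with both (2.48 and 2.52), and Plaa, a ubiquitin-binding protein, rose with MGCD0103 (1.26). In untreated embryos, 7 of the 8 HDAC6 partners were higher at the 4-cell than at the 2-cell stage, where 23.2% of all probes were higher. The count was also 7 under 75th percentile scaling and quantile normalization (30.6% and 27.9% of all higher). It was 7 without replicate 1 of the 2-cell control too (22.5% of all). Over all lists 17 of 58 genes were higher and 18 lower in this step (23.2% and 29.7% of all). Neither Hdac6 probe was called in it. Other lists also exceeded the share of all probes in other steps. From 8-cell to morula 29 of 58 list genes were higher (24.6% of all), among them 7 of 10 corepressors and adaptors.

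Of the 11 polyamine genes read beside Hdac10, 10 were tested. Odc1, the rate-limiting enzyme of polyamine synthesis, fell at the 2-cell stage with T247 (-2.19) and MGCD0103 (-2.80), and Sat1, which acetylates spermidine and spermine, fell with both (-1.28 and -1.58, the former -0.88 and not called under quantile normalization). Azin1, the antizyme inhibitor, fell with T247 (-1.0) and was at -0.80 and -0.55, not called, under 75th percentile scaling and quantile normalization. Odc1 was at -2.80 with T247 and -3.42 with MGCD0103 without replicate 1 of the 2-cell control, and Sik3 and Plaa were then at 1.56 and 1.86 with MGCD0103. Of the 4 HDAC11 partners tested, no gene passed the limits in an HDACi comparison.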

How the data were processed

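Per the labels, the arrays were Agilent 1-colour (Cy3), and the authors extracted spots with Agilent Feature Extraction 9.5.1.1 (the scanner files name 10.7.1.1). The deposited intensity of each spot was background-subtracted and detrended within its array, not normalized between arrays. The deposited series matrix holds log2 values that the authors normalized and served as an alternative. For this report, log2 intensity was smooth quantile normalized over 39 arrays, without outlier-flagged spots and with spots of a probe averaged, and 0 spots were saturated. A probe was kept if positive and significant on 1 or more of the 3 arrays of every condition fitted (8 per fit). Fits used limma 3.58.1 (R 4.3.3) and covered the 24 arrays of the HDACi experiment (32750 probes) or the 24 untreated arrays (31011 probes), in 17 comparisons with Benjamini-Hochberg adjustment. The code was tested on simulated data. With 3 arrays per condition, their number limits the precision.

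All probes of the 7 genes are named, with the 3 genes most like Hdac7 by Pearson correlation over condition means (1 of them is not reported here), the first for every other member, called genes of the partner lists (brightest probe of each), all class I HDACs and all MEF2 factors. Members and lists were chosen with earlier results of these data known. Alternatives covered scaling, background correction, filter, fold limit, arrays fitted, slide, replicate block and each array left out. The values of lists and TG-repeat probes under other scalings and without replicate 1 of the 2-cell control were added after the data were seen. Protein and transcript sequences were not used here.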

Additional observations from a re-analysis of the deposited data

Results flagged for a closer look

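In 5 cases the response of an HDAC probe to an HDACi differed between stages in the test of the difference itself (limma, adjusted p over 32750 probes). The Hdac5 LFC was lower in 2-cell than in 1-cell embryos, by -1.68 with T247 (adjusted p = 0.0186) and by -1.71 with MGCD0103 (adjusted p = 0.0183), both against the same control arrays. Between 2-cell and 4-cell embryos, the LFC with T247 changed by 1.51 for Hdac4 (adjusted p = 0.000198), by -1.47 for Hdac7 (adjusted p = 0.000511) and by 1.81 for Hdac9 (adjusted p = 0.00471). All 5 use the 2-cell control, whose replicate 1 stood apart. Without it the values were -2.39 and -2.42 for Hdac5, 1.57 for Hdac4, -1.71 for Hdac7 and 1.65 for Hdac9, all called. With normexp the changes of Hdac4, Hdac7 and Hdac9 were 0.64, -0.96 and 0.54 and not called. The Hdac9 change is no estimate of a fold. At the 4-cell stage no control array and 1 of 3 T247 arrays were well above background for it. Without replicate 2 or 3 of the 2-cell control the Hdac5 changes were -1.27 and -1.38 with T247 and -1.30 and -1.40 with MGCD0103, and not called. The Hdac5 change with T247 was also not called under 75th percentile scaling. In a fit of only the arrays compared, neither Hdac5 change was called.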

How the results depend on the processing

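Over 129 values of single probes, 2338 of 2551 recomputed values kept direction and call, 49 lost the call, 58 gained it, 103 uncalled values changed sign and 3 called values reversed. The reversed values were Hdac5 from GV to MII at 0.000272 under 75th percentile scaling and the Hdac6 probes at 0.0395 and 0.114 under quantile normalization. The causes were not tested. Counts of HDAC probes called moved as follows. With T247 at the 1-cell stage 2 became 1 under 75th percentile scaling, quantile normalization, normexp, no filter and slide as a random block, and 1 when any array was left out. With T247 at the 2-cell stage 1 became 2 under quantile normalization, 4 with no fold limit, and 1 to 3 with an array left out. With T247 at the 4-cell stage 2 became 0 with normexp, 1 with the series matrix, 5 with no fold limit, 1 with only the arrays compared, and 1 to 2 with an array left out. With MGCD0103 at the 2-cell stage 1 became 4 with no fold limit and 1 to 2 with an array left out, and between the inhibitors at that stage 0 became 1 and 0 to 1. For the change from the 1-cell to the 2-cell stage, 1 became 0 under 75th percentile scaling and with only the arrays compared, 2 with no fold limit and 0 to 2 with an array left out for T247, and 3 with no fold limit, 0 with only the arrays compared and 0 to 1 with an array left out for MGCD0103. For the T247 change from the 2-cell to the 4-cell stage 3 became 0 with normexp and 6 with no fold limit. From GV to MII 5 became 2 under 75th percentile scaling and quantile normalization and 3 with the brightest probe of each gene. From MII to 1-cell 2 became 0 with normexp, 1 with the series matrix, and 1 to 2 with an array left out. From 2-cell to 4-cell 2 became 0 with normexp and the series matrix, 1 with the brightest probe, and 0 to 2 with an array left out. With no fold limit 0 became 2 from 4-cell to 8-cell, 2 became 4 from 8-cell to morula (1 with normexp) and 3 became 6 from morula to blastocyst.

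With the replicate number as a block no count of HDAC probes called changed. The deviations of same-numbered arrays, which share a slide among untreated arrays, correlated above 0 in all 3 pairs of each of the 7 stage comparisons (0.0319 to 0.231), and above 0.1 in all 3 pairs between the 4-cell and 8-cell stages alone. Another scaling moved the share of higher among all calls from 37.2% to 55.0% with T247 at the 2-cell stage, from 72.9% to 59.6% with T247 at the 4-cell stage, from 87.0% to 74.7% with MGCD0103 at the 1-cell stage and from 1.58% to 62.0% from GV to MII. Signal over background limits Hdac9 from the 4-cell stage on and Hdac11 on all but 3 arrays.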
